A study of Arabidopsis with 12 samples.

Results

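The genes described here are the cyclins, the cyclin-dependent kinases and their inhibitors and partners of Arabidopsis thaliana, measured as messenger RNA in shaded leaves. They were taken as every gene of the deposited table whose description contains the word cyclin, other than tetracyclin, which gave 101 of 32833 genes. Of these, 84 had 3 or more of the 12 libraries at 1 TPM or higher (TPM is a transcript level scaled for gene length and library) and were tested, and 17 did not. The text search also caught 5 genes in which the letters stand inside another word, 2 ribosome recycling factors and 3 cycling DOF factors. They are counted with the rest but set apart, and 79 of the tested genes are left without them. The kinase CDKA;1 is described in the table under another name and was not caught, and its values are given beside the others.

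Seedlings were 10 days old, grown in white light, and spent 6 h under shade light (red to far-red ratio 0.17) in a liquid half-strength Murashige and Skoog medium that held sucrose or, as the control, sorbitol, each at 30 mM. Polyadenylated RNA came from the leaf portions. There were 3 libraries for each sugar in wild-type Col-0 and in phyA-211, a line mutated in the far-red receptor phytochrome A, and thus 4 groups. All 4 groups were shaded, so no comparison measures shade itself, and by its title the study concerns sucrose, TOR kinase and phytochrome A signalling in leaves that develop in shade. The labels do not say whether replicates were separate growth experiments, and the p-values speak only of the spread among these libraries, part or all of which may be technical.

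Cyclin-dependent kinases drive a cell through its division cycle when a cyclin is bound to them. In plants, D-type cyclins act at the entry from G1 and answer to hormones and sugar, A-type cyclins act from S phase onward, and B-type cyclins act at mitosis together with A- and B-type kinases. Inhibitors of the KRP and SIAMESE families bind these complexes, and in leaves the balance decides between division and endoreduplication, in which DNA is copied without division. H-, T- and L-type cyclins partner kinases that act on transcription or RNA processing, so the name cyclin does not by itself place a gene in the division cycle.

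The genotype labels were followed by the PHYA transcript, at 223 to 385 TPM in the 6 Col-0 libraries and 32.5 to 44.9 TPM in the 6 phyA-211 libraries. The libraries listed between 22451 and 22852 genes above 0, and their read depth is unknown. The leaf markers RBCS1A, CAB1, CA1, GLK1 and LHCA1 summed to between 20416 and 45810 TPM, and the lowest library was a phyA-211 sucrose library, replicate 3. That library had the lowest weight, 0.192, when libraries were weighted by their scatter, and calls of named genes that ended or appeared without it are given with that change. Among the cyclin genes 7 calls with sucrose in phyA-211 ended without it and 1 appeared. Root markers summed to 44.3 to 107 TPM, with PLT1 and PLT2 below 1 TPM in all libraries, SCR at 19.7 to 38.5 TPM and PHT1;1 at 9.54 to 48.7 TPM. Among the shoot meristem markers WUS was below 1 TPM throughout and CLV3 reached 1.24 TPM. The other meristem markers were present in all libraries, STM at 2.83 to 4.26, KNAT1 at 10.6 to 19 and CLV1 at 19.5 to 70.1 TPM. In bulk tissue, fewer cells of a type and less RNA per cell cannot be told apart.

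With sucrose, 8 of the 84 genes rose and 4 fell in Col-0, and 18 rose and 7 fell in phyA-211, at an adjusted p under 0.05 in limma. The background over all 19862 genes tested was 12.1% that rose and 9.95% that fell in Col-0, and 16.9% and 10.5% in phyA-211. The counts by class that follow stand against these shares. The shares among the cyclin genes were 9.52% and 4.76% in Col-0, and 21.4% and 8.33% in phyA-211, so in Col-0 neither share was above the background and in phyA-211 only the rises were. The median log2 change was 0.15 in Col-0 and 0.25 in phyA-211, beside 0.08 and 0.11 for all genes. The 8 genes that rose in Col-0 also rose in phyA-211, and 3 of the 4 that fell in Col-0 fell there too. These 2 comparisons share no library, but they share the estimate of spread. The share of calls repeated in this way over all genes was not computed.

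The split between rises and falls depended on how libraries were scaled. With median-ratio scaling in place of TPM alone, 6 rose and 8 fell in Col-0 and 15 rose and 11 fell in phyA-211. Over all genes that scaling gave 12.4% rising and 14.6% falling in Col-0 and 14.1% and 15% in phyA-211. With quantile normalization the cyclin counts were 6 and 5, and 17 and 9, beside 13.4% and 12.5%, and 17.4% and 13.2%, of all genes. Without the phyA-211 sorbitol library of replicate 3, the rises in phyA-211 numbered 7, with 6.73% of all genes rising. Without the phyA-211 sucrose library of replicate 3 they numbered 13, with 9.64% of all genes rising.

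**Figure D1:**
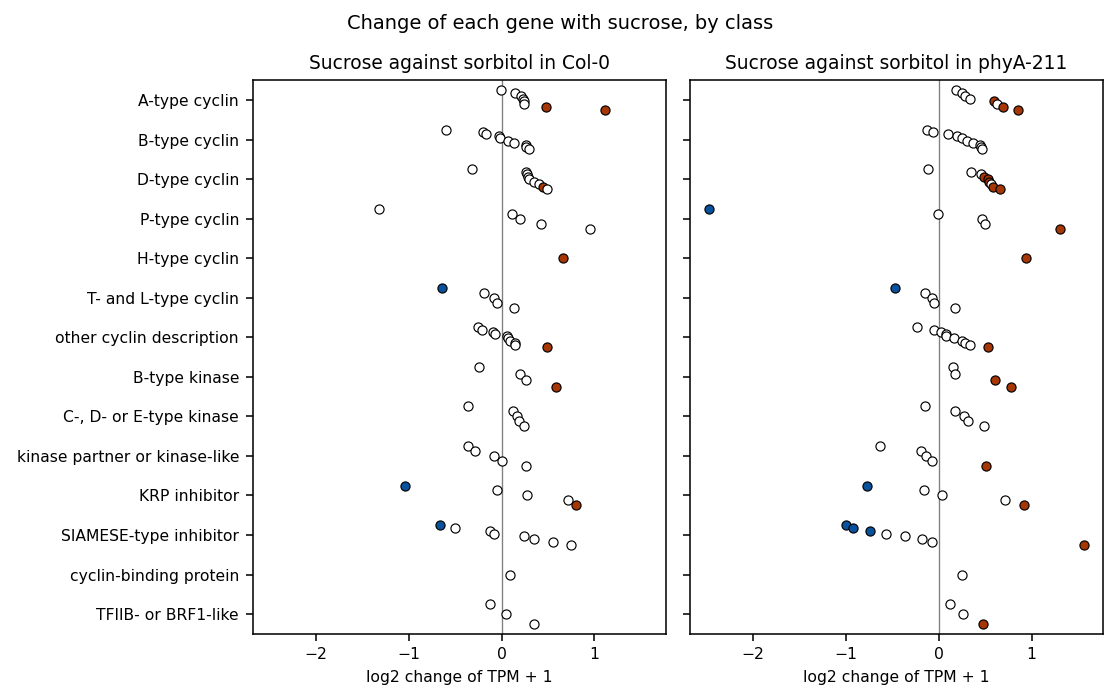
Change with sucrose of the 79 tested genes other than the text matches, as the log2 change of TPM + 1 (horizontal axis), in rows by class. Col-0 is on the left and phyA-211 on the right. Filled points passed an adjusted p under 0.05 in limma (red rose, blue fell) and open points did not. No B-type cyclin is filled in either panel, and the A-type, D-type and H-type cyclins have filled points only to the right of 0.

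D-type cyclins, the class that couples division to sugar and hormone signals, held more rises with sucrose in phyA-211 than in Col-0. The count in phyA-211 rested in part on single libraries. Of 10 genes, 9 were tested. In Col-0 1 rose, and in phyA-211 5 rose, and none fell in either genotype. These are 11.1% and 55.6% of the 9, beside 12.1% and 16.9% of all genes, so the Col-0 share lay at the background. Their median log2 change was 0.29 in Col-0 and 0.53 in phyA-211. Without phyA-211 sucrose replicate 3, the phyA-211 rises were 2, CYCD3;1 and CYCD3;3, with 9.64% of all genes rising, and the median was 0.48. The calls of CYCD2;1, CYCD4;1 and CYCD4;2 were also lost without phyA-211 sorbitol replicate 3, with 6.73% of all genes rising. CYCD7;1 did not reach the filter and peaked at 0.31 TPM.

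CYCD3;3, one of 3 CYCD3 genes known to prolong division in young leaves, was at 13.5, 12.3 and 11.8 TPM in Col-0 with sorbitol and 18.9, 17.3 and 16.2 with sucrose. In phyA-211 it was at 15.2, 14.1 and 12.7 TPM with sorbitol and 21.5, 18.6 and 22.2 with sucrose. The sugar groups did not overlap in either genotype. The log2 change was 0.45 ± 0.12 (SE) in Col-0 (limma adjusted p = 0.018) and 0.54 ± 0.12 in phyA-211 (adjusted p = 0.00836). The Col-0 call was lost on leaving out any of 4 libraries, sorbitol replicates 2 and 3 and sucrose replicates 1 and 2.

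CYCD3;1, the cytokinin-induced CYCD3 gene, was at 13.8, 15 and 9.62 TPM in Col-0 with sorbitol and 17.6, 14.2 and 14.5 with sucrose, and these groups overlapped (log2 change 0.27 ± 0.15, adjusted p = 0.227). The phyA-211 values were 13.3, 13.4 and 12.3 TPM with sorbitol and 21.2, 21.1 and 21 with sucrose. The phyA-211 groups were far apart beside their spread, with a log2 change of 0.66 ± 0.15 (adjusted p = 0.0101). The difference between the genotypes' sucrose changes was 0.39 ± 0.21 and did not pass (adjusted p = 0.999).

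CYCD3;2 was the most abundant D-type cyclin and did not share that direction. It was at 51.1, 55.9 and 43.2 TPM in Col-0 with sorbitol and 43.9, 40.6 and 35.3 with sucrose. The phyA-211 levels were 45.9, 37.8 and 42 TPM with sorbitol and 42.7, 37.9 and 35.4 with sucrose. The groups overlapped in both genotypes, and the log2 changes of -0.32 ± 0.13 and -0.11 ± 0.13 did not pass (adjusted p = 0.106 and 0.548).

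CYCD2;1, a D-type cyclin known for its response to sucrose, was at 25.2, 22.9 and 19.5 TPM in Col-0 with sorbitol and 29.9, 27.8 and 24.7 with sucrose. In phyA-211 the values were 21.3, 24.3 and 22.1 TPM with sorbitol and 29.8, 29.2 and 37.6 with sucrose. Only the phyA-211 groups were apart. The log2 change there was 0.49 ± 0.13 (adjusted p = 0.0213), against 0.28 ± 0.13 in Col-0 (adjusted p = 0.164). The phyA-211 call was lost without sorbitol replicate 1, sorbitol replicate 3 or sucrose replicate 3, or when only the compared groups were fitted.

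The CYCD4 genes were low. CYCD4;1 was at 2.41, 1.43 and 2.84 TPM in Col-0 with sorbitol and 3.45, 3.06 and 3.83 with sucrose, and in phyA-211 at 2.83, 2.03 and 2.21 with sorbitol and 3.99, 3.82 and 4.19 with sucrose. The groups did not overlap in either genotype, but only the phyA-211 change passed (0.58 ± 0.19, adjusted p = 0.0379, against 0.49 ± 0.19, adjusted p = 0.0831). CYCD4;2, known from the stomatal lineage of the hypocotyl together with CYCD4;1, was at 1.53, 1.98 and 1.36 TPM in Col-0 with sorbitol and 2.4, 2.17 and 1.95 with sucrose. In phyA-211 it was at 1.15, 1.22 and 1.53 TPM with sorbitol and 1.99, 2.76 and 2.26 with sucrose, and rose by a log2 of 0.53 ± 0.17 (adjusted p = 0.036). Both calls were lost without phyA-211 sucrose replicate 3, among other settings, and that of CYCD4;1 was lost under median-ratio scaling, quantile normalization and 7 other settings.

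The other 3 tested D-type cyclins passed in no comparison. CYCD1;1 was at 16.5, 15.3 and 9.19 TPM in Col-0 with sorbitol, 17.7, 16 and 15.9 with sucrose, 8.6, 14.7 and 10.3 in phyA-211 with sorbitol, and 14.4, 16.2 and 15.6 with sucrose. CYCD5;1 was at 3.08, 3.54 and 2.93 TPM, 5.76, 3.8 and 3.67, 3.37, 4.16 and 3.19, and 5.17, 4.69 and 7.73 in the same order of groups. CYCD6;1, known for asymmetric division in the root ground tissue, was at 1.63, 2.19 and 1.4 TPM, 2.86, 2.86 and 2.15, 2.59, 2.53 and 2.44, and 4.51, 3.35 and 2.74. All 3 genes had their highest mean with sucrose, and CYCD5;1 in phyA-211 came nearest to the threshold (log2 change 0.57 ± 0.20, adjusted p = 0.0542).

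**Figure D2:**
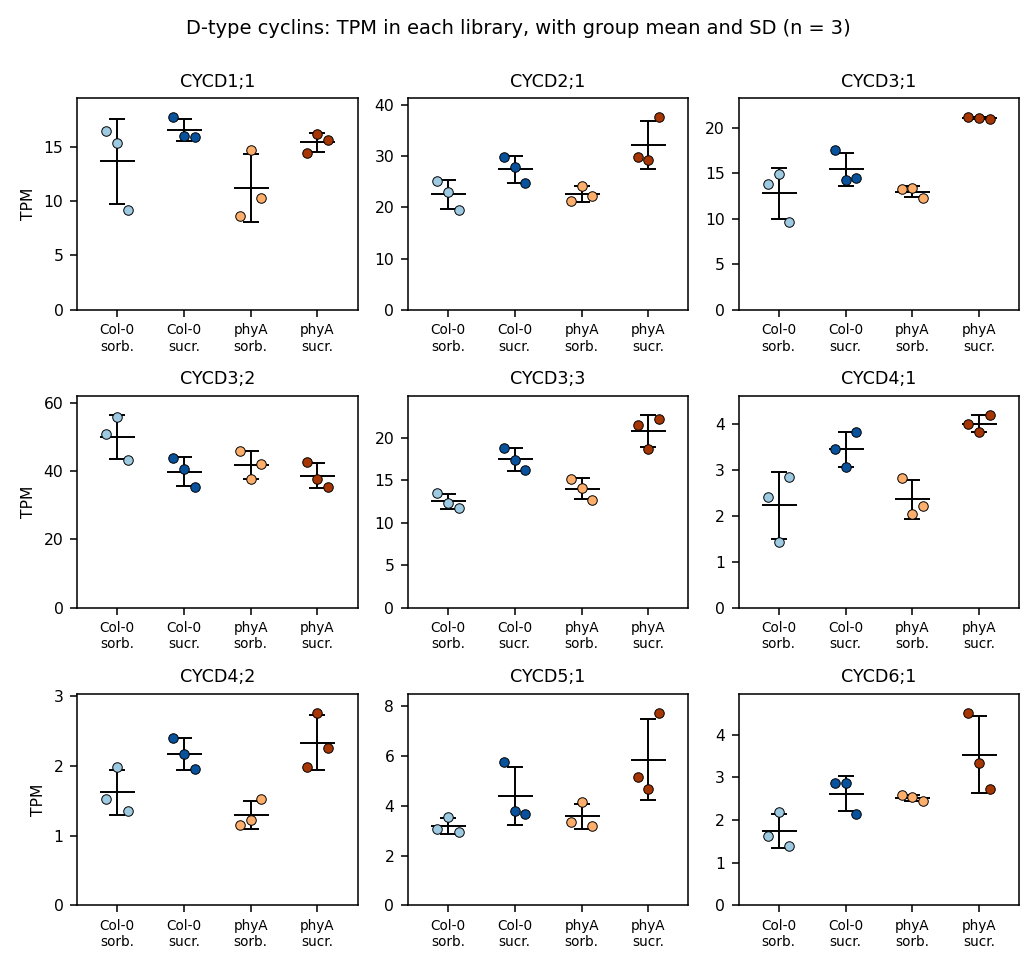
TPM of the 9 tested D-type cyclins in each library (points), with the group mean and SD of 3 libraries (black lines), for Col-0 and phyA-211 with sorbitol (sorb.) or sucrose (sucr.). Each axis starts at 0. CYCD3;1 in phyA-211 moves from 12.3 to 13.4 TPM with sorbitol to between 21 and 21.2 with sucrose, while CYCD3;2 is not higher with sucrose.

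Among A-type cyclins, the genes that rose in both genotypes were CYCA3;1 and CYCA3;2, which act in S phase. Of 10 genes, 8 were tested, 2 rose in Col-0 and 3 rose in phyA-211, and none fell. The rises were 25% and 37.5% of the 8, beside 12.1% and 16.9% of all genes. CYCA3;1 was at 3.02, 2.63 and 2.71 TPM in Col-0 with sorbitol and 7.5, 7.43 and 6.59 with sucrose. The values in phyA-211 were 3.22, 2.63 and 3.08 TPM with sorbitol and 5.57, 6 and 7.09 with sucrose. Every sucrose library was above every sorbitol library. The log2 change was 1.11 ± 0.14 in Col-0 (limma adjusted p = 0.000932) and 0.86 ± 0.14 in phyA-211 (adjusted p = 0.00292), and both calls held under each alternative in which the gene was tested.

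CYCA3;2, the most abundant A-type cyclin, was at 21.7, 19.9 and 19.1 TPM in Col-0 with sorbitol and 27.6, 30.9 and 27.1 with sucrose. In phyA-211 the values were 23, 16.9 and 20.8 TPM with sorbitol and 29.4, 28.2 and 35.3 with sucrose. The sugar groups were again apart, with log2 changes of 0.47 ± 0.13 (adjusted p = 0.0245) and 0.60 ± 0.13 (adjusted p = 0.00912). Median-ratio scaling ended both calls, with log2 changes of the same sign. The Col-0 call was lost under 6 of 21 alternatives, which were also quantile normalization and leaving out sorbitol replicate 2 or 3 or sucrose replicate 1 or 2. CYCA3;2, CYCA3;3 and CYCA3;4 follow each other directly in the RefSeq gene order. CYCA3;3 was listed at 0 in all 12 libraries, and CYCA3;4 was at 9.01 to 14 TPM and passed in neither genotype (adjusted p = 0.28 and 0.163).

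The third A-type cyclin that rose in phyA-211 was CYCA1;1, of the group active from G2 to mitosis. It was at 4.84, 6.05 and 3.75 TPM in Col-0 with sorbitol, 6.11, 5.69 and 5.72 with sucrose, 3.78, 3.92 and 3.54 in phyA-211 with sorbitol, and 7.8, 7.5 and 4.98 with sucrose. The log2 change was 0.69 ± 0.18 in phyA-211 (adjusted p = 0.0176) and 0.24 ± 0.18 in Col-0 (adjusted p = 0.381). Without phyA-211 sorbitol replicate 3, sucrose replicate 1 or sucrose replicate 2 the call was lost, as it was when only the compared groups were fitted. The CYCA2 genes, which act with B-type kinases and restrain endoreduplication, did not pass, and CYCA2;1 stayed below the filter.

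With all 12 libraries, no B-type cyclin rose or fell in any of the 5 comparisons, which changed without phyA-211 sucrose replicate 3. Of 11 genes, 10 were tested, with mean levels from 1.54 TPM for CYCB2;1 to 14 TPM for CYCB1;2. With sucrose 12.1% of all genes rose in Col-0 and 16.9% in phyA-211, and 10 genes are too few to set the class apart from that. CYCB1;2 was at 11.2, 15.7 and 9.67 TPM in Col-0 with sorbitol, 13.4, 10.7 and 13.8 with sucrose, 11.3, 14 and 12.8 in phyA-211 with sorbitol, and 23, 20.5 and 11.9 with sucrose. In phyA-211 with sucrose, 2 of the 3 libraries stood above all others and the remaining library, replicate 3, lay within the sorbitol range. The log2 change was 0.46 ± 0.23 in phyA-211 (adjusted p = 0.154) and 0.07 ± 0.23 in Col-0 (adjusted p = 0.864). Without that library CYCB1;2 rose with sucrose in phyA-211 (0.73, adjusted p = 0.0259), and CYCB1;2 and CYCB2;3 were higher in phyA-211 than in Col-0 with sucrose (0.74, adjusted p = 0.037, and 0.95, adjusted p = 0.0317). The class median with sucrose was 0.28 in phyA-211, or 0.44 without that library, and 0.03 in Col-0. CYCB2;3 had the lowest change in Col-0, at 6.6, 11.4 and 6.47 TPM with sorbitol and 5.84, 4.84 and 4.03 with sucrose (log2 change -0.60 ± 0.25, adjusted p = 0.106).

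The B-type kinases, which are found only in plants and peak from S phase to mitosis, were all 4 tested. CDKB1;1 was at 3.56, 6.16 and 3.77 TPM in Col-0 with sorbitol and 6.35, 6.94 and 8.07 with sucrose, and in phyA-211 at 4.17, 5.27 and 4.68 with sorbitol and 8.74, 8.04 and 6.31 with sucrose. Its groups did not overlap in either genotype, and the log2 changes were 0.59 ± 0.19 (adjusted p = 0.0458) and 0.60 ± 0.19 (adjusted p = 0.0368). These calls were marginal, and 14 of 21 alternatives ended the first and 9 of 21 the second. CDKB1;2 was at 3.49, 3.98 and 2.39 TPM in Col-0 with sorbitol, 4.59, 3.63 and 4.04 with sucrose, 2.71, 2.63 and 2.47 in phyA-211 with sorbitol, and 6.03, 6.25 and 3.66 with sucrose. It rose in phyA-211 (log2 change 0.78 ± 0.20, adjusted p = 0.0159) and did not pass in Col-0 (0.26 ± 0.20, adjusted p = 0.381). The call of CDKB1;2 was lost without phyA-211 sorbitol replicate 3 or sucrose replicate 2, or when only the compared groups were fitted. CDKB1;1 and CDKB1;2 are close copies and their reads may be split.

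CDKB2;1 was at 9.64, 17.5 and 10 TPM in Col-0 with sorbitol, 15.3, 13.1 and 13.2 with sucrose, 13.1, 16.5 and 16.1 in phyA-211 with sorbitol, and 20.7, 18.2 and 13.8 with sucrose. CDKB2;2 was at 8.95, 10.3 and 6.52 TPM, 6.82, 7.37 and 6.85, 7.31, 9.19 and 8.24, and 10.5, 9.6 and 7.94 in the same order. The sugar groups of both overlapped in both genotypes, and neither of these kinases, which are restricted to dividing cells, passed (adjusted p = 0.538 and 0.552 for CDKB2;1, and 0.325 and 0.497 for CDKB2;2). They are also close copies.

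CDKA;1, the main kinase of the plant cycle, was at 48.4, 48.3 and 40.4 TPM in Col-0 with sorbitol, 47.8, 40.1 and 39.1 with sucrose, 38.9, 47.7 and 45.1 in phyA-211 with sorbitol, and 51.7, 50.5 and 62.8 with sucrose. The log2 changes with sucrose of -0.11 ± 0.13 and 0.32 ± 0.13 did not pass (adjusted p = 0.594 and 0.0925). Among the 5 C-, D- and E-type kinases, which act on transcription and on the activation of other kinases, none was called. The most abundant, CDKC;2, was at 83.5, 78.4 and 67.2 TPM in Col-0 with sorbitol, 98.8, 89.6 and 70.6 with sucrose, 75.3, 86.5 and 74.6 in phyA-211 with sorbitol, and 96.8, 98.3 and 99.4 with sucrose. Its phyA-211 groups were apart, with a log2 change of 0.32 ± 0.13 that did not pass (adjusted p = 0.0969).

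**Figure D3:**
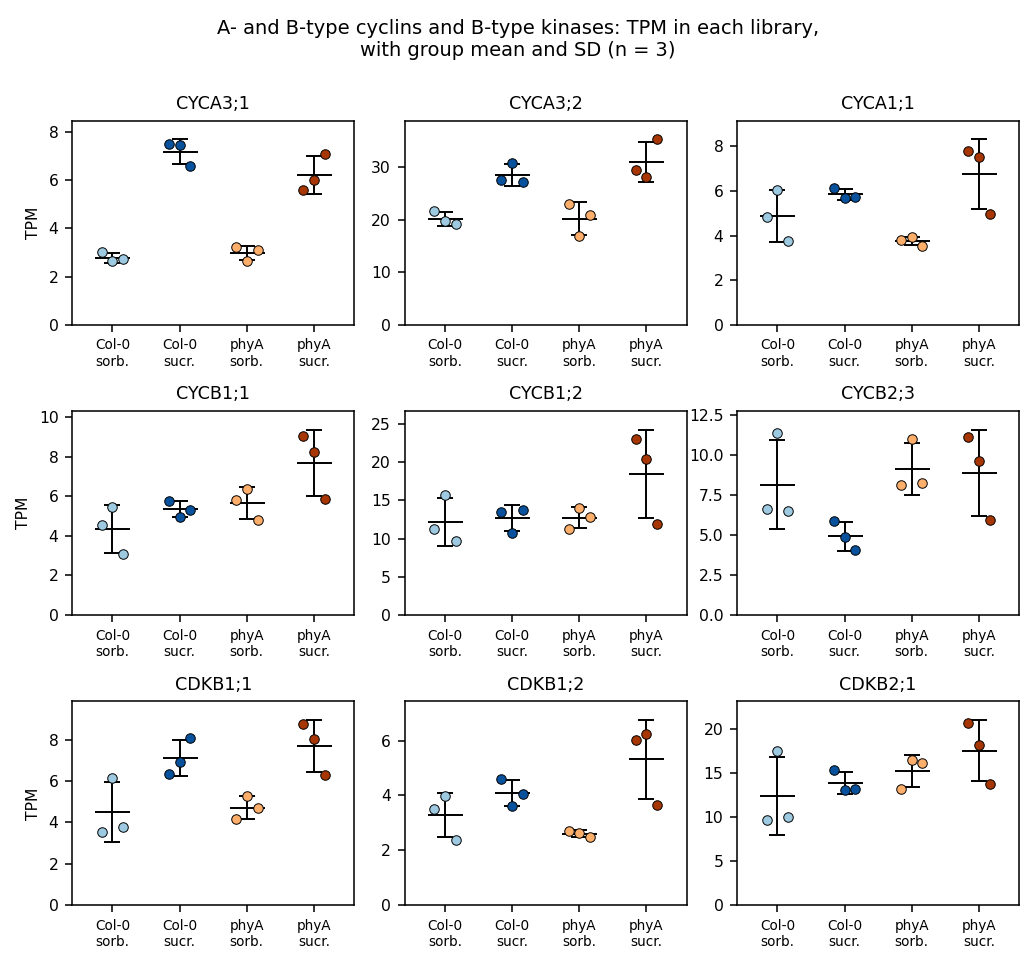
TPM in each library (points) of 3 A-type cyclins, 3 B-type cyclins and 3 B-type kinases, with the group mean and SD of 3 libraries (black lines); each axis starts at 0. CYCA3;1 has every sucrose library above every sorbitol library in both genotypes, and the B-type cyclins do not, with 1 phyA-211 sucrose library lower than the other 2.

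The summed TPM of a class gives its level per library. The A-type sum was 54.5, 57.7 and 45.2 in Col-0 with sorbitol, 74.7, 69.3 and 63 with sucrose, 54.4, 52.8 and 50.6 in phyA-211 with sorbitol, and 76, 75.6 and 78.8 with sucrose. The groups did not overlap, and the sucrose to sorbitol ratio of means was 1.32 in Col-0 and 1.46 in phyA-211, each with p = 0.1 in an exact permutation test, 2-sided, which is the smallest p that 3 libraries against 3 allow. The D-type sum had ratios of 1.08 (p = 0.6, exact permutation test) and 1.28 (p = 0.1), the B-type cyclin sum 0.98 (p = 1) and 1.28 (p = 0.3), and the B-type kinase sum 1.12 (p = 0.5) and 1.30 (p = 0.2). With median-ratio scaling the D-type groups in phyA-211 overlapped, with a ratio of 1.15 (p = 0.2, exact permutation test). The A-type sugar groups stayed apart with that scaling and with quantile normalization. The design cannot reach p under 0.05 for such sums.

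**Figure D4:**
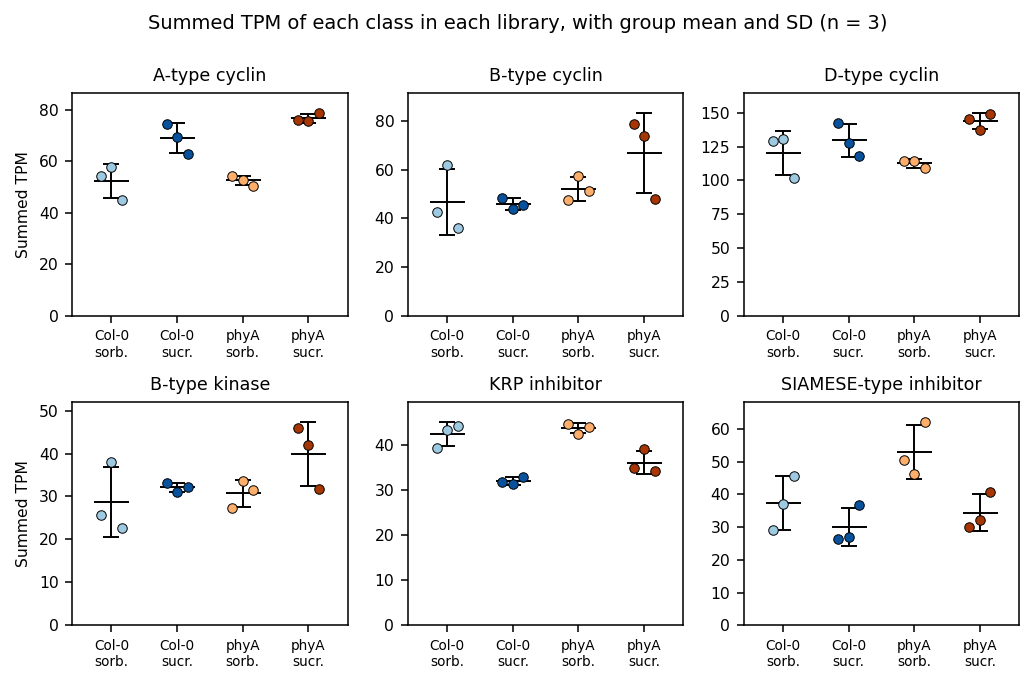
Summed TPM of 6 classes in each library (points), with the group mean and SD of 3 libraries (black lines); each axis starts at 0. The A-type cyclin sum is higher with sucrose in both genotypes without overlap, the B-type cyclin sum overlaps in both, and the KRP sum is lower with sucrose in both.

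Among the inhibitors, KRP4 and KRP3 moved in opposite directions with sucrose in both genotypes. All 5 KRP genes caught by the search were tested. KRP4, known for linking cell size to division in the shoot meristem, was the most abundant of the 5, at 27.1, 29.2 and 29.5 TPM in Col-0 with sorbitol and 13.9, 13.1 and 13.3 with sucrose. In phyA-211 it was at 31.3, 28.7 and 29.4 TPM with sorbitol and 18.6, 19.9 and 13.3 with sucrose. It fell by 1.03 ± 0.14 on the log2 scale in Col-0 (limma adjusted p = 0.00109) and by 0.77 ± 0.14 in phyA-211 (adjusted p = 0.00397), and both calls held under all 21 alternatives.

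KRP3 was at 1.53, 3.31 and 2.45 TPM in Col-0 with sorbitol and 5.5, 4.36 and 4.73 with sucrose, and in phyA-211 at 2.85, 2.65 and 2.77 with sorbitol and 7.34, 6.25 and 4.97 with sucrose. The groups did not overlap, and the log2 change was 0.80 ± 0.20 in Col-0 (adjusted p = 0.015) and 0.92 ± 0.20 in phyA-211 (adjusted p = 0.00824). The Col-0 call was lost without sorbitol replicate 1 or sucrose replicate 1. KRP7 had log2 changes of 0.72 ± 0.28 and 0.71 ± 0.28 that did not pass (adjusted p = 0.0927 and 0.083). The KRP sum, to which KRP4 gave the most, was lower with sucrose, with a ratio of 0.76 in Col-0 and 0.83 in phyA-211 (p = 0.1 each, exact permutation test). KRP2, not caught by the search, was at 24.8 to 32.9 TPM, and its log2 changes were 0.07 and 0.08 (adjusted p = 0.702 and 0.586).

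The SIAMESE-type inhibitors, which promote endoreduplication, numbered 10 in the search, and 8 were tested. With sucrose none rose and 1 fell in Col-0, and 1 rose and 3 fell in phyA-211. The falls were 12.5% and 37.5% of the 8, beside 9.95% and 10.5% of all genes, and the phyA-211 rise was 12.5%, beside 16.9%. Without phyA-211 sucrose replicate 3, 2 fell in phyA-211, with 7.62% of all genes falling. SIM itself, known from trichomes, was the most abundant, at 16.7, 22 and 29.4 TPM in Col-0 with sorbitol and 13.8, 15.3 and 17 with sucrose. In the mutant the levels were 23, 23.8 and 34.4 TPM with sorbitol and 12.8, 16 and 12.2 with sucrose. The Col-0 groups overlapped and the phyA-211 groups did not. The log2 change was -0.50 ± 0.21 in Col-0 (adjusted p = 0.103) and -0.92 ± 0.21 in phyA-211 (adjusted p = 0.00937), and the latter call held under all 21 alternatives.

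AT1G08180 was at 5.29, 6.6 and 6.39 TPM in Col-0 with sorbitol, 2.81, 3.15 and 4.63 with sucrose, 7.87, 4.64 and 8.55 in phyA-211 with sorbitol, and 4.01, 3.95 and 4.93 with sucrose. It fell in Col-0 (log2 change -0.66 ± 0.22, adjusted p = 0.0464), a call that 11 of 21 alternatives ended, and not in phyA-211 (-0.57 ± 0.22, adjusted p = 0.07). AT1G10690 was at 1.52, 2.05 and 2.09 TPM, 1.84, 1.25 and 2.14, 2.95, 2.67 and 2.86, and 1.85, 1.29 and 0.84 in the same order of groups. It fell in phyA-211 (-0.74 ± 0.20, adjusted p = 0.0199), where the sugar groups did not overlap. That call was lost without sorbitol replicate 1, sorbitol replicate 3 or sucrose replicate 3, or when only the compared groups were fitted.

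SMR4, a relative of SIM, went the other way. It was at 0.57, 0.95 and 0.58 TPM in Col-0 with sorbitol and 2.05, 1.08 and 2.64 with sucrose, and in phyA-211 at 1.55, 1.35 and 0.25 with sorbitol and 3.45, 3.02 and 9.93 with sucrose. Its highest value, in phyA-211 sucrose replicate 3, was far above the other 2 libraries of that group. It rose in phyA-211 (log2 change 1.57 ± 0.39, adjusted p = 0.0138) and did not pass in Col-0 (0.75 ± 0.39, adjusted p = 0.19). The call was lost without phyA-211 sorbitol replicate 3 or when only the compared groups were fitted, and held without sucrose replicate 3.

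SMR7, an inhibitor known to be induced by DNA damage and reactive oxygen, was the cyclin-related gene with the largest difference between the genotypes. With sorbitol it was at 0.65, 0.7 and 0.4 TPM in Col-0 and 7.93, 7.28 and 7.34 in phyA-211. Given sucrose, Col-0 had 0.93, 0.58 and 1.69 TPM and phyA-211 had 2.48, 2.94 and 4.68. Every phyA-211 library was above every Col-0 library under both sugars. SMR7 reached the filter through phyA-211, where it was high, since only 1 Col-0 library had 1 TPM or more.

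SMR7 was in the tested set through its phyA-211 libraries, and its Col-0 values lay near the floor, so its genotype p-values are descriptive only. The log2 difference of SMR7, phyA-211 against Col-0, was 2.43 ± 0.23 with sorbitol (limma adjusted p = 0.000267) and 1.08 ± 0.23 with sucrose (adjusted p = 0.0154). The size depended on the pseudocount, and with sorbitol it ran from 1.16 with a pseudocount of 5 to 3.51 with 0.1. With sucrose the call was lost without Col-0 sucrose replicate 2 or when only the compared groups were fitted. Within phyA-211, SMR7 fell with sucrose by 1.00 ± 0.23 on the log2 scale (adjusted p = 0.0106), and in Col-0 its change was 0.35 ± 0.23 (adjusted p = 0.296). The difference between these sucrose changes was -1.35 ± 0.32, with the lowest p of the 84 genes before adjustment, and did not pass over all genes (limma adjusted p = 0.688).

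**Figure D5:**
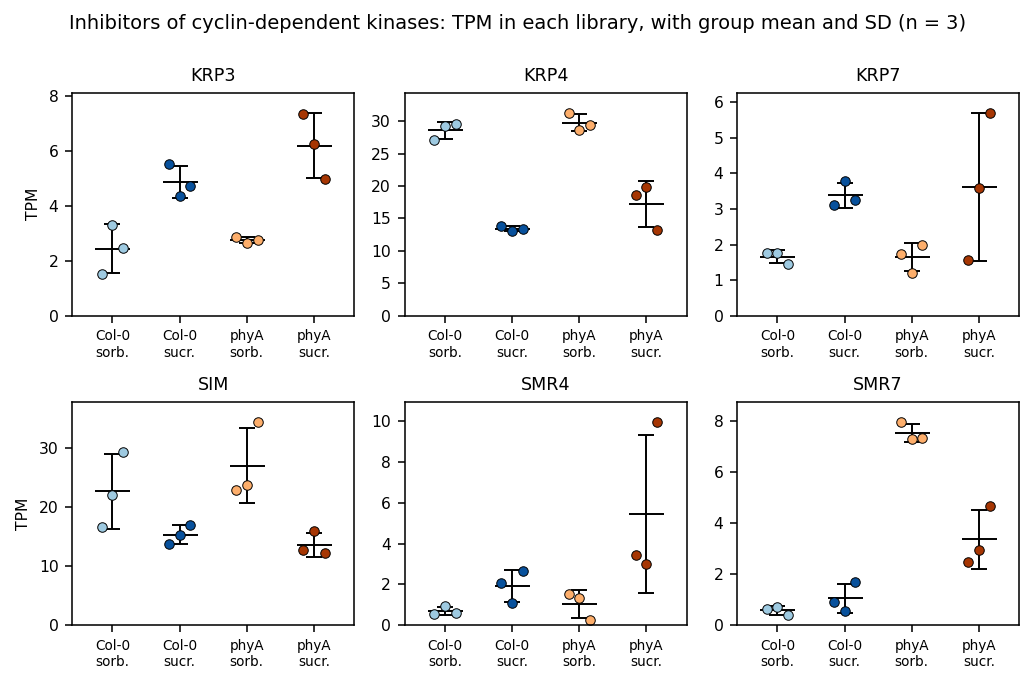
TPM of 3 KRP and 3 SIAMESE-type inhibitors in each library (points), with the group mean and SD of 3 libraries (black lines); each axis starts at 0. KRP4 is lower and KRP3 higher with sucrose in both genotypes, and SMR7 is at 1.69 TPM or less in Col-0 and at 2.48 TPM or more in phyA-211.

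In the comparison of phyA-211 with Col-0 under sorbitol, SMR7 was the only 1 of the 84 genes that rose and AT4G34090 the only 1 that fell, and the same pair was called under sucrose. SMR7 was among the 84 through the phyA-211 libraries in which it was high. The background was 0.775% of all genes that rose and 1.38% that fell with sorbitol, and 4.15% and 3.25% with sucrose, so about 1 call in each direction lies near the background with sorbitol and below it with sucrose. AT4G34090 carries the description cyclin delta-3 and was the most abundant of the genes described as cyclins. It was at 80.6, 76 and 64.5 TPM in Col-0 and 49.2, 39.3 and 39.1 in phyA-211 with sorbitol, and at 85.5, 84.1 and 75.1 in Col-0 and 54, 47.7 and 42.2 in phyA-211 with sucrose. Every phyA-211 library was below every Col-0 library. The log2 differences were -0.78 ± 0.13 (limma adjusted p = 0.0104) and -0.76 ± 0.13 (adjusted p = 0.00574). The call with sorbitol was lost without Col-0 sorbitol replicates 1 or 2 or phyA-211 sorbitol replicate 3. Without phyA-211 sucrose replicate 3, 5 genes were higher and 2 lower in phyA-211 with sucrose, beside 4.71% and 3.4% of all genes. The calls that appeared were CYCB1;2, CYCB2;3, KRP4 and CDF2, which were higher, and CDF1, which was lower.

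In the genotype by sugar interaction, 0 of the 84 genes were called in either direction by limma, and 2 had an unadjusted p under 0.05, SMR7 and AT1G10690. Over all genes 0.0101% rose and 0% fell, and 792 of 19862 had an unadjusted p under 0.05. A gene called in phyA-211 and not in Col-0 is therefore not shown to respond differently in the genotypes. When libraries were weighted by their scatter, 8 of the genes rose and 3 fell in the interaction, beside 4.93% and 1.99% of all genes.

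P-type cyclins, which partner kinases in nutrient signalling as well as in division, held the largest single change. Of 7 genes, 5 were tested, and 1 rose and 1 fell in phyA-211 and none in Col-0. In phyA-211 each was 20% of the 5, beside 16.9% of all genes that rose and 10.5% that fell. CYCP2;1, known in roots for coupling sugar to the start of division, was at 28.4, 27.1 and 51.9 TPM in Col-0 with sorbitol and 10.9, 12.6 and 16.5 with sucrose. In phyA-211 it was at 48, 19.7 and 35.7 TPM with sorbitol and 9.17, 9.25 and 1.07 with sucrose. The sugar groups were apart in both genotypes but wide within each, and the lowest value was again phyA-211 sucrose replicate 3. The log2 change was -2.48 ± 0.54 in phyA-211 (limma adjusted p = 0.00858), where it ranged from -2.86 to -1.71 over the alternatives without losing the call, and -1.32 ± 0.54 in Col-0 (adjusted p = 0.105).

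CYCP3;1 was at 0.78, 1.73 and 0.92 TPM in Col-0 with sorbitol, 3.2, 3.22 and 2.8 with sucrose, 1.1, 0.61 and 0.38 in phyA-211 with sorbitol, and 1.71, 2.43 and 6.63 with sucrose. The groups did not overlap in either genotype. It rose in phyA-211 (log2 change 1.31 ± 0.34, adjusted p = 0.016), a call lost without sorbitol replicate 3 or when only the compared groups were fitted. In Col-0 it came close (0.95 ± 0.34, adjusted p = 0.0631). The most abundant P-type cyclin, CYCP1;1, was at 43, 37.8 and 34.5 TPM, 60.4, 48.4 and 47.1, 28.3, 44.2 and 35, and 40.3, 42.7 and 68.9 in the same order and passed in neither genotype (adjusted p = 0.175 and 0.118).

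Among the H- and L-type cyclins, CYCH;1 and RCY1 moved in opposite directions. CYCH;1, the partner of the kinases that activate other cyclin-dependent kinases, was at 8, 9.53 and 7.75 TPM in Col-0 with sorbitol and 15.9, 13.4 and 12.6 with sucrose. Levels in phyA-211 were 7.2, 8.83 and 8.03 TPM with sorbitol and 14.8, 14.3 and 20.5 with sucrose. It rose by a log2 of 0.66 ± 0.16 in Col-0 (limma adjusted p = 0.012) and 0.94 ± 0.16 in phyA-211 (adjusted p = 0.00339), and both calls held under all 21 alternatives. Its kinase partners CDKD1;1 and CDKD1;3 passed in neither genotype.

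RCY1, an L-type cyclin with an arginine- and serine-rich tail of the kind found in splicing factors, was at 46.9, 50.4 and 51.8 TPM in Col-0 with sorbitol and 34.6, 30.5 and 29.7 with sucrose. In phyA-211 it was at 52.6, 54.5 and 61.7 TPM with sorbitol and 38.7, 43.9 and 38.5 with sucrose. It fell by 0.64 ± 0.11 on the log2 scale in Col-0 (adjusted p = 0.00264) and by 0.47 ± 0.11 in phyA-211 (adjusted p = 0.00996), and the second call was lost without phyA-211 sorbitol replicate 3. None of the 4 tested T-type cyclins, partners of C-type kinases, was called. CYCT1;4 and CYCT1;5, at 16.8 to 28.2 and 19 to 31.9 TPM, are close copies.

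Smaller changes lay among genes known mainly by description. AT3G19650, a cyclin-like protein, was at 15.9, 13.3 and 11.9 TPM in Col-0 with sorbitol and 21.3, 16.8 and 20.8 with sucrose, and in phyA-211 at 13.5, 15.1 and 13.5 with sorbitol and 19.8, 19.3 and 23 with sucrose. It rose in both genotypes (log2 change 0.49 ± 0.14, adjusted p = 0.0242, and 0.53 ± 0.14, adjusted p = 0.0166), though 4 of 21 alternatives ended the first call and 3 of 21 the second, all of them single libraries left out, with phyA-211 sucrose replicate 3 among those for the second. AT1G12330, described as kinase-like, and AT2G45100, described as BRF1-like, passed in phyA-211 (0.51 ± 0.15, adjusted p = 0.0298, and 0.48 ± 0.15, adjusted p = 0.0359). In Col-0 their changes were 0.26 ± 0.15 (adjusted p = 0.255) and 0.35 ± 0.15 (adjusted p = 0.119). Both phyA-211 calls were lost without sucrose replicate 3 (0.41, adjusted p = 0.102, and 0.39, adjusted p = 0.117). AT2G45100 lies 1 gene away from CYCP3;1 in the RefSeq gene order.

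Several abundant genes passed in no comparison. CKS1, the small protein that docks kinases on their substrates, was at 33.5, 37.5 and 45.9 TPM in Col-0 with sorbitol, 23.9, 27.1 and 40.9 with sucrose, 60.8, 32.8 and 55.2 in phyA-211 with sorbitol, and 31.7, 31.5 and 28.7 with sucrose, with groups that varied widely within themselves. TFIIB2, a general transcription factor with a cyclin-like fold, stayed between 23 and 31.3 TPM. AT1G22970, a cyclin-binding protein, stayed between 17 and 27.1 TPM.

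The 5 genes caught only by their letters supplied 1 rise and 1 fall in each genotype. The ribosome recycling factor AT3G01800 was at 12.3, 12.1 and 7.82 TPM in Col-0 with sorbitol and 24, 25.1 and 23.2 with sucrose, and in phyA-211 at 10.5, 15.4 and 11.9 with sorbitol and 20.08, 22.8 and 39.7 with sucrose (log2 change 1.12 ± 0.24, adjusted p = 0.00737, and 1.02 ± 0.24, adjusted p = 0.0112). CDF2, a cycling DOF factor that represses flowering, was at 23.5, 26.3 and 16.2 TPM in Col-0 with sorbitol and 11.5, 9.57 and 9.97 with sucrose, and in phyA-211 at 33.4, 35.3 and 28.9 with sorbitol and 18.4, 17.1 and 11.9 with sucrose. It fell in both (-0.998 ± 0.19, adjusted p = 0.00449, and -1.01 ± 0.19, adjusted p = 0.00502). RRF, the other recycling factor, was the most abundant at 117 to 200 TPM and did not pass.

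The genes that did not reach the filter numbered 17, and 5 of them were listed at 0 in all libraries. Just inside the filter stood CYCT1;2, at 0.71 to 1.39 TPM, and SDS, a meiotic cyclin, at 0.46 to 1.34 TPM. Just outside stood CYCP4;3, which peaked at 0.9 TPM, and the inhibitor AT1G51355, which passed 1 TPM in a single library. No tested gene had all its libraries of 1 TPM or more in 1 group alone, and 73 of the 84 had at least 1 TPM in all 12 libraries. SMR7 still needed its phyA-211 libraries to reach the filter.

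Beside the cyclins, 54 other genes of the cycle were listed by role, and 53 were tested. With sucrose 13 rose and 4 fell in Col-0, and 18 rose and 3 fell in phyA-211. Over all genes 12.1% rose and 9.95% fell in Col-0, and 16.9% and 10.5% in phyA-211, and the counts by role stand against the same shares. Without phyA-211 sucrose replicate 3, 5 of the phyA-211 calls ended and 6 others appeared. The median log2 changes were 0.13 and 0.37, beside 0.08 and 0.11 over all genes. The rises were most frequent in DNA replication, among lists that were chosen with earlier results of these data known. Of 6 S-phase genes, 5 rose in Col-0 and 6 in phyA-211, with medians of 1.14 and 1.06. The phyA-211 call of CDT1B was lost without sucrose replicate 3, among 4 of 20 alternatives, which left 5 rises. PCNA2, a copy of the replication clamp, changed by 1.17 ± 0.18 in Col-0 (limma adjusted p = 0.00169) and 1.06 ± 0.18 in phyA-211 (adjusted p = 0.00339), and ETG1, a replisome factor, by 1.12 ± 0.19 (adjusted p = 0.00301) and 1.02 ± 0.19 (adjusted p = 0.00502).

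Of the 9 genes of the retinoblastoma and E2F group, which D-type cyclin kinases act on, 4 rose in Col-0 and 5 in phyA-211, and none fell. The phyA-211 call of DEL3 was lost under 13 of 20 alternatives, sucrose replicate 3 left out among them. RBR1, the retinoblastoma protein, was at 19.1, 21.1 and 16.5 TPM in Col-0 with sorbitol and 36.9, 30.7 and 25.6 with sucrose, with a log2 change of 0.68 ± 0.21 (adjusted p = 0.0362) and of 0.86 ± 0.21 in phyA-211 (adjusted p = 0.0123). DEL1, an E2F that holds back endoreduplication, rose by 1.18 ± 0.20 (adjusted p = 0.00294) and 1.14 ± 0.20 (adjusted p = 0.00419), and E2FA by 0.87 ± 0.21 (adjusted p = 0.0145) and 0.89 ± 0.21 (adjusted p = 0.0125). The Col-0 call of RBR1 was lost under 8 of 21 alternatives, 6 of them single libraries left out, and that of E2FA on leaving out any of 3. The checkpoint kinase WEE1 also rose, by 0.86 ± 0.19 (adjusted p = 0.00911) and 1.12 ± 0.19 (adjusted p = 0.00366).

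With all 12 libraries, none of the 8 mitosis genes, among them KNOLLE, HIK and the Aurora kinases, was called in any comparison, and this changed without phyA-211 sucrose replicate 3. Without it HIK, PLE, AUR1 and AUR2 rose with sucrose in phyA-211, by log2 changes of 0.83, 0.68, 0.55 and 0.66 (limma adjusted p = 0.0267, 0.0371, 0.0357 and 0.0162), and AUR2 was higher in phyA-211 than in Col-0 with sucrose. The median log2 change with all libraries was -0.04 in Col-0 and 0.32 in phyA-211, and 0.53 in phyA-211 without that library. In the MYB3R group, which sets transcription at G2 to mitosis, none rose and 2 fell in Col-0, and 2 rose and 1 fell in phyA-211. The repressor MYB3R5 fell in both (-0.47 ± 0.15, adjusted p = 0.0374, and -0.46 ± 0.15, adjusted p = 0.0372). MYB3R1 rose in phyA-211 (0.58 ± 0.19, adjusted p = 0.043). These MYB3R calls were marginal, with 8 of 20 alternatives ending each call of MYB3R5 and 10 of 21 that of MYB3R1. Both phyA-211 calls were lost without sucrose replicate 3.

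Among 10 genes of cyclin and inhibitor turnover, the F-box genes SKP2A and SKP2B fell in both genotypes. SKP2A was at 18.9, 17.8 and 14.7 TPM in Col-0 with sorbitol and 6, 6.76 and 6.54 with sucrose, and its log2 change was -1.28 ± 0.24 (adjusted p = 0.00415), with -1.04 ± 0.24 in phyA-211 (adjusted p = 0.0108). Its phyA-211 call was lost when only the compared groups were fitted. SKP2B changed by -1.002 ± 0.19 (adjusted p = 0.00386) and -1.40 ± 0.19 (adjusted p = 0.00175). UVI4, an inhibitor of the anaphase-promoting complex, rose in both (0.89 ± 0.23, adjusted p = 0.0188, and 0.68 ± 0.23, adjusted p = 0.0483). Among growth regulators upstream, ANT, which keeps organ cells dividing, rose in both (0.55 ± 0.18, adjusted p = 0.0472, and 0.75 ± 0.18, adjusted p = 0.012), as did TCP4, which promotes the exit from division (1.04 ± 0.28, adjusted p = 0.0232, and 1.17 ± 0.28, adjusted p = 0.0131). The Col-0 call of UVI4 was ended by 4 of 20 alternatives and the phyA-211 call by 14 of 20. For ANT these numbers were 13 and 1 of 21, and for TCP4 3 and 1 of 21. The phyA-211 call of CCS52A1, an activator of the anaphase-promoting complex, was lost without sucrose replicate 3, among 4 of 21 alternatives. TOR itself did not pass (adjusted p = 0.789 and 0.835).

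Between the genotypes, 0 of the 53 pathway genes were called with sorbitol by limma and 1 fell with sucrose. Over all genes 0.775% rose and 1.38% fell with sorbitol, and 4.15% and 3.25% with sucrose, so these counts were not above the background. The gene that fell was SMR1, a SIAMESE relative known for giant cells of the sepal, whose description did not match the search. It was at 34.3, 34.4 and 35.7 TPM in Col-0 with sorbitol, 25, 29.7 and 31.5 with sucrose, 23.5, 19.3 and 24.9 in phyA-211 with sorbitol, and 16.4, 22.7 and 15.4 with sucrose. Every phyA-211 library was below every Col-0 library given the same sugar, and the log2 differences were -0.61 ± 0.15 (adjusted p = 0.0717) and -0.65 ± 0.15 (adjusted p = 0.0271). The call was lost when only the compared groups were fitted, and without any of Col-0 sucrose replicates 2 and 3 and phyA-211 sucrose replicates 1 and 3. Without the last of these, CCS52B, SKP2A and AUR2 were called higher in phyA-211 with sucrose, beside 4.71% of all genes.

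Markers of other cell types moved in part with sucrose. Of 9 stomatal lineage markers, summed at 55.5 to 76.8 TPM in Col-0 with sorbitol, 63.3 to 83.8 with sucrose, 59.1 to 67.9 in phyA-211 with sorbitol and 72.9 to 83 with sucrose, none was called in Col-0, and SPCH rose in phyA-211 (log2 change 0.71 ± 0.22, limma adjusted p = 0.0352). Of 5 shoot meristem markers, summed at 36.2 to 90.4 TPM over all libraries, 3 were tested. CLV1, which gave the most to that sum, fell in both genotypes (-0.87 ± 0.16, adjusted p = 0.00397, and -0.62 ± 0.16, adjusted p = 0.0175). STM and KNAT1 did not share that direction and were not called, with log2 changes of 0.15 and 0.45 in Col-0 and 0.05 and 0.02 in phyA-211. CLV1 was also higher in phyA-211 than in Col-0 with sucrose (0.61 ± 0.16, limma adjusted p = 0.0441), the comparison in which SMR7 was higher and AT4G34090 and SMR1 were lower. Of 8 root markers 6 were tested, and none of these and none of the 5 leaf markers was called in any comparison. The part of these cell types in the changes of cyclins was not tested.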

How the data were processed

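The authors deposited 1 table of TPM (a transcript level scaled for gene length and library total) for 32833 genes in 12 libraries, per the file headers. The submitters' processing notes name fastp, cutadapt, HISAT2 and the TAIR10 build, and neither the program behind the TPM values nor its annotation is given in the sources used here. TPM holds no read counts, so depth is unknown and no counting interval is given. Genes with at least 1 TPM in 3 or more libraries (19862) were fitted as log2(TPM + 1) with limma 3.58.1 in R 4.3.3, as 4 group means with a trend and no replicate block (8 residual degrees of freedom), and 5 comparisons were tested. Adjusted p-values are Benjamini-Hochberg over all genes tested, 2-sided. A log2 change on this scale understates changes of low genes. Class sums were compared by exact permutation tests in scipy 1.17.1.

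The genes and lists were chosen with earlier results of these data known. Values per library are given for genes called in a sugar or genotype comparison (up to 12 rises and 12 falls, by size), the highest gene of each class, the D-type cyclins, the B-type kinases and CDKA;1, and other genes named were chosen after their values were seen. Names beyond the table's came from RefSeq (TAIR10.1), where all 101 identifiers were found. The fit was tested on simulated data. Alternatives covered pseudocounts, filters, scaling, library weights, a replicate block, fits of only the groups compared, and leaving out each library. Deviations correlated above 0.1 in 6 of 18 same-numbered pairs and in 12 of 36 differently numbered pairs. This check cannot tell whether same-numbered libraries shared a batch. Searches of promoters and proteins were not run.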

Additional observations from a re-analysis of the deposited data

How the results depend on the processing

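Of 39 calls on genes picked by the rule for values per library, 19 held under every alternative and 20 were lost under at least 1, and none changed sign. These leave out the phyA-211 calls of AT1G12330 and AT2G45100, both lost without sucrose replicate 3. In 18 of the 39 the log2 value moved by over 1.5 times under some alternative. Counts of cyclin genes that rose or fell moved by over 1.5 times as follows, and the cause was not tested. With library weights (estimated gene by gene, a choice made after seeing the data because the default did not converge) 19 rose and 12 fell with sucrose in Col-0, 44 and 14 in phyA-211, 8 and 8 between genotypes with sorbitol, 35 and 6 with sucrose, and 8 and 3 in the interaction. Weights raised the calls over all genes too, to 24.1% and 20.9%, 37% and 20.4%, 13.7% and 11.5%, 31% and 12.4%, and 4.93% and 1.99% in the same order. With median-ratio scaling 8 fell in Col-0, 11 in phyA-211 and 4 between genotypes with sucrose, the last also 4 with quantile normalization. Over all genes 14.6%, 15% and 4.59% fell in that order, and 4.3% in the last with quantile normalization. Median-ratio scaling moved the median log2 change of all genes with sucrose in phyA-211 from 0.11 to -0.02. With a filter on a mean TPM of at least 5, which tests fewer genes, 10 rose in phyA-211 and 0 rose between genotypes under either sugar, since SMR7 was not tested. Over all genes 21.1% rose in phyA-211 under that filter, and 0.795% and 5.72% between genotypes with sorbitol and sucrose. Fitting only the groups compared gave 8 rises in phyA-211 and 0 between genotypes with sucrose, beside 8.16% and 1.34% of all genes.

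Leaving out 1 library at a time gave 3 to 11 rises in Col-0 and 7 to 20 in phyA-211. Over all genes the share rising then ran from 5.75% to 15.8% in Col-0 and from 6.73% to 20.9% in phyA-211. Between genotypes there were 0 to 1 falls with sorbitol, and 0 to 5 rises and 1 to 3 falls with sucrose. Beside these stood 0.519% to 2.34%, 1.28% to 4.71% and 1.59% to 3.49% of all genes. The highest count with sucrose, 5 rises, came without phyA-211 sucrose replicate 3. Where a comparison loses a library, its group keeps 2. Without the 5 text matches, an alternative added after seeing the data, the rises and falls were 7 and 3 in Col-0 and 17 and 6 in phyA-211. Pseudocounts of 0.1 and 5 and dropping the filter kept every count of cyclin genes within 1.5 times.

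For the 53 pathway genes, library weights gave 35 rises and 5 falls with sucrose in phyA-211, 2 and 2 between genotypes with sorbitol, 19 and 3 with sucrose, and 7 and 1 in the interaction. Fitting only the groups compared gave 2 falls in Col-0, 1 in phyA-211 and 0 between genotypes with sucrose, and a pseudocount of 0.1 gave 1 rise there. Over all genes that fit gave 10%, 5.48% and 1.95% falling in the same order, and that pseudocount 4.19% rising. Leaving out single libraries left 7 to 15 rising and 2 to 5 falling in Col-0, 9 to 20 rises and 2 to 4 falls in phyA-211, 0 to 1 rises and 0 to 1 falls between genotypes with sorbitol, and 0 to 3 rises and 0 to 1 falls with sucrose. Over all genes the falls within a genotype ran from 5.64% to 11.8% in Col-0 and from 4.93% to 10.6% in phyA-211, with the rises as given above.

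Between genotypes with sorbitol, the log2 ratio of the A-type cyclin sum turned to -0.0611 with median-ratio scaling and -0.0905 with quantile normalization, and that of the KRP sum to -0.0249 and -0.0407. With the replicate block, 7 cyclin genes rose and 4 fell in Col-0 and 16 rose and 7 fell in phyA-211, and 2 pathway genes fell in Col-0 and 1 rose between genotypes with sucrose. Over all genes the block gave 11% rising and 9.3% falling in Col-0, 15% and 10.1% in phyA-211, and 3.21% rising between genotypes with sucrose. Correlations ran from -0.27 to 0.31 between same-numbered libraries and from -0.29 to 0.37 between differently numbered ones. The check cannot settle whether the numbers are a pairing, since each group holds 3 libraries centred on their own mean.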
